A study of Vulpes vulpes with 8 samples.

Results

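A set of 9 proteins of neutrophil granules and cytosol, LCN2, LTF, PGLYRP1, CAMP, CD177, MPO, S100A8, S100A9 and S100A12, were followed through the gingiva of 8 red foxes (Vulpes vulpes). All probe sets to which the platform annotation gave 1 of these symbols were taken. That gave 10 probe sets for 8 of the 9 genes, out of 42924 probe sets without controls. LTF and CAMP had 2 probe sets each, the other 6 genes had 1, and no probe set was named for S100A12, which is therefore not analysed here. The genes were chosen by their measured differences between affected and unaffected foxes on these same arrays, among them those of LCN2, LTF and PGLYRP1, so the differences are given as a description and without a test.

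The affected group was 5 foxes diagnosed with hereditary hyperplastic gingivitis (HHG), an inherited overgrowth of the gum: males 19, 55 and 107 and females 381 and 757. The unaffected group was 3 foxes: males 86 and 97 and female 402. Diagnosis rested on raised, red and granular gum along the tooth margins, an early stage of the disease. Each fox gave 1 piece of gingiva and 1 Affymetrix Canine 2 array, whose dog probes read fox RNA. Pieces came from euthanised foxes in the pelting season or from anaesthetised foxes in late spring. The labels do not say which fox belongs to which season and give no ages or treatments.

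Neutrophils store antimicrobial proteins in granules that are filled in sequence while the cells mature in bone marrow. Azurophil granules, the earliest, hold myeloperoxidase (MPO) and serine proteases. Specific granules, made later, hold lactoferrin (LTF), lipocalin 2 (LCN2) and the cathelicidin CAMP, and gelatinase granules hold MMP9. S100A8 and S100A9 pair in the cytosol as calprotectin, which withholds zinc and manganese from microbes. In the mouth the genes are not restricted to neutrophils: squamous epithelium makes S100A8 and S100A9 and can make LCN2, and salivary glands secrete lactoferrin. The arrays read pieces of whole gum, so fewer cells of a type and less RNA per cell cannot be told apart.

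The arrays were alike in scale, with a median signal of 28.6 to 33.7. A probe set was called at background in a fox where it did not exceed the 95th percentile of 42 bacterial control probe sets on that array, a level of 7.42 to 16.6. Signals are linear intensities; differences are on the log2(signal + 16) scale, which shrinks those of dim probe sets. Of the 10 probe sets 8 passed a filter that left out the dimmest 40%, and the 2 that did not were MPO and the dimmer LTF probe set. Levels are compared between foxes only, never between probe sets.

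LCN2, LTF and PGLYRP1 read higher in affected gingiva by a log2 difference of more than 1, CAMP and CD177 had lower means there, S100A8 and S100A9 differed by at most 0.096, and MPO lay at background in 7 of 8 foxes. Over all 25754 probe sets tested, limma called 0 between affected and unaffected foxes at an adjusted p under 0.05 (0%), and so 0 of the 8 probe sets of these genes. At an unadjusted p under 0.05 there were 298 higher and 395 lower. Together they made a smaller share of the 25754 than the 0.05 that chance alone would give. A log2 difference of at least 1 was seen in 3 of the 8, against 0.315% of all probe sets tested, and one of -1 or less in 0 of the 8, against 0.0932%. The mean was higher in affected foxes in 5 of the 8, against 43.5% of all, and lower in 3, against 56.5%. The median difference over all probe sets tested was -0.037. Since the genes were picked with this contrast known, nothing is read from these shares.

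**Figure D1:**
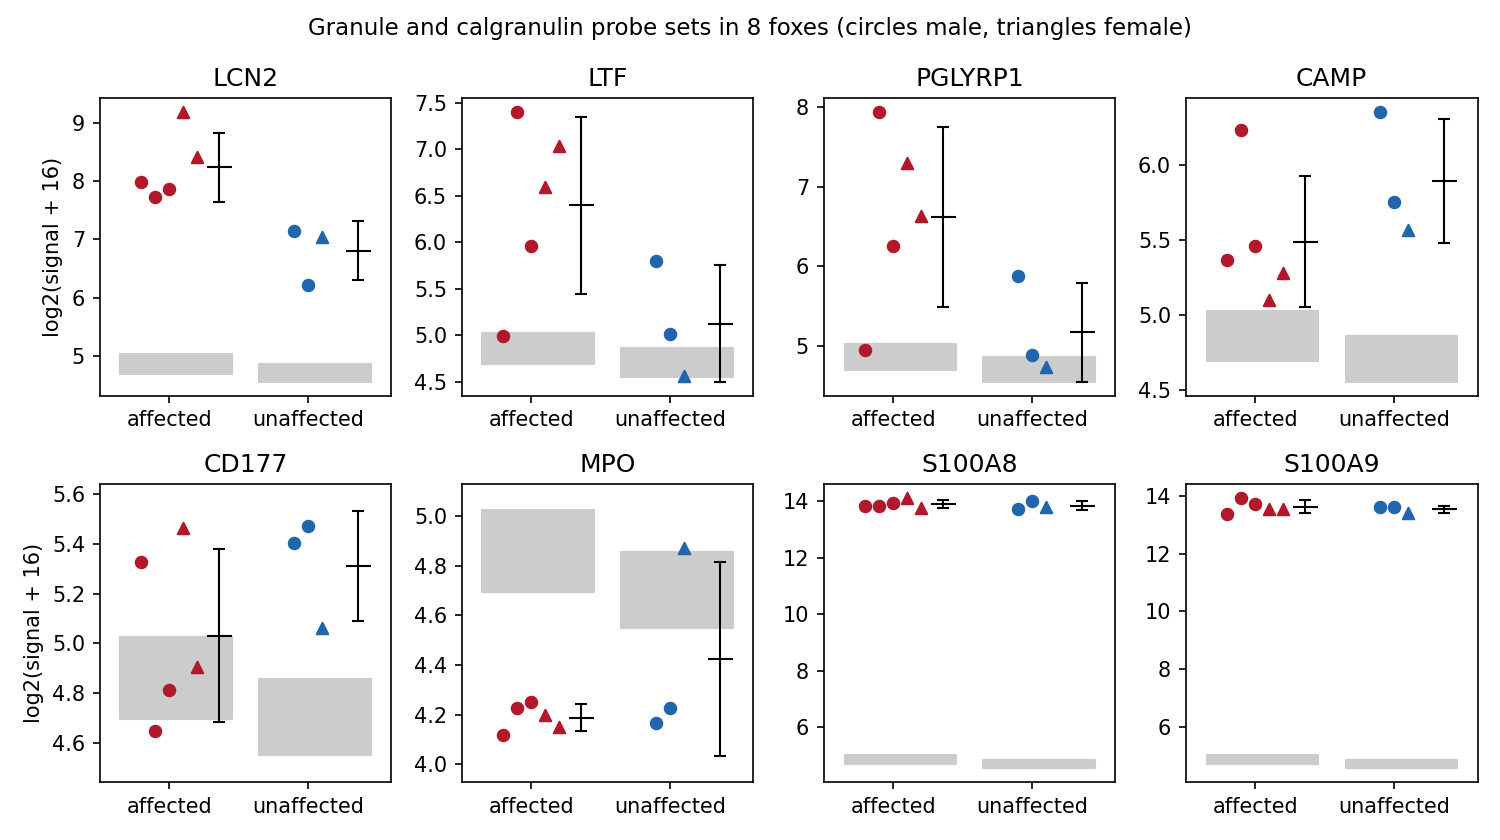
Log2(signal + 16) of the brightest probe set of each of 8 genes in affected (left, red, n = 5) and unaffected foxes (right, blue, n = 3). Circles are males, triangles females, black bars the group mean ± SD and grey bands the range of the background level in that group; every affected fox lies above every unaffected fox for LCN2 only, and S100A8 and S100A9 lie far above background in all 8 foxes.

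LCN2, a lipocalin that starves bacteria of iron by binding their siderophores, was the gene with the clearest separation. Its signal was 239, 196, 218, 571 and 324 in affected foxes 19, 55, 107, 381 and 757, against 125, 58.7 and 116 in unaffected foxes 86, 97 and 402. Every affected fox lay above every unaffected fox, which held for 1 of the 8 probe sets and for 0.916% of all probe sets tested; the opposite held for 0 of the 8 and for 1.52% of all. Affected foxes averaged 309 ± 154 (SD, n = 5), whereas unaffected foxes averaged 100.02 ± 36.1 (SD, n = 3). On the log2 scale LCN2 differed by 1.44 ± 0.35 (SE). The difference stayed between 1.15 and 1.61 with any 1 fox left out. Males alone gave 1.18, and females alone, with a single unaffected fox, 1.76.

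Fox 381 had the highest LCN2 signal, followed by fox 757, and these are the affected females. The 3 affected males read 196 to 239, below both of them. In the unaffected group the female, at 116, lay between the males at 58.7 and 125.

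LTF, lactoferrin, is the iron-binding protein of specific granules and of saliva. Its brighter probe set read 15.9, 153, 46.1, 80.5 and 115 in affected foxes 19, 55, 107, 381 and 757, against 39.6, 16.3 and 7.50 in unaffected foxes 86, 97 and 402. In LTF, 4 of the 5 affected foxes lay above all unaffected foxes, and fox 19 lay among the unaffected. Fox 402, the lowest, was close to the background level of its array, 7.42. The log2 difference was 1.28 ± 0.51 (SE), and 0.99 to 1.63 with any 1 fox left out. The other LTF probe set did not exceed background in 3 foxes, 2 affected and 1 unaffected. It read 2.77 to 29.9 in affected foxes, against 3.29 to 15.1 in unaffected ones, a difference of 0.29.

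PGLYRP1 binds bacterial peptidoglycan and is stored in neutrophil granules. It read 14.9, 230.3, 60.04, 141 and 83.4 in affected foxes 19, 55, 107, 381 and 757, against 43.0, 13.6 and 10.6 in unaffected foxes 86, 97 and 402. The pattern was that of LTF: fox 55 was highest, fox 19 lay among the unaffected, and fox 86 was the highest unaffected fox. The lowest foxes, 402, 97 and 19, were not far above the background levels of their arrays, 7.42, 9.46 and 9.88. The log2 difference was 1.45 ± 0.58 (SE), and 1.12 to 1.86 with any 1 fox left out. For LTF and PGLYRP1 the difference was larger within females (2.26 and 2.23) than within males (0.71 and 0.997); this gap between the sexes was not tested, and it rests on 1 unaffected female.

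**Figure D2:**
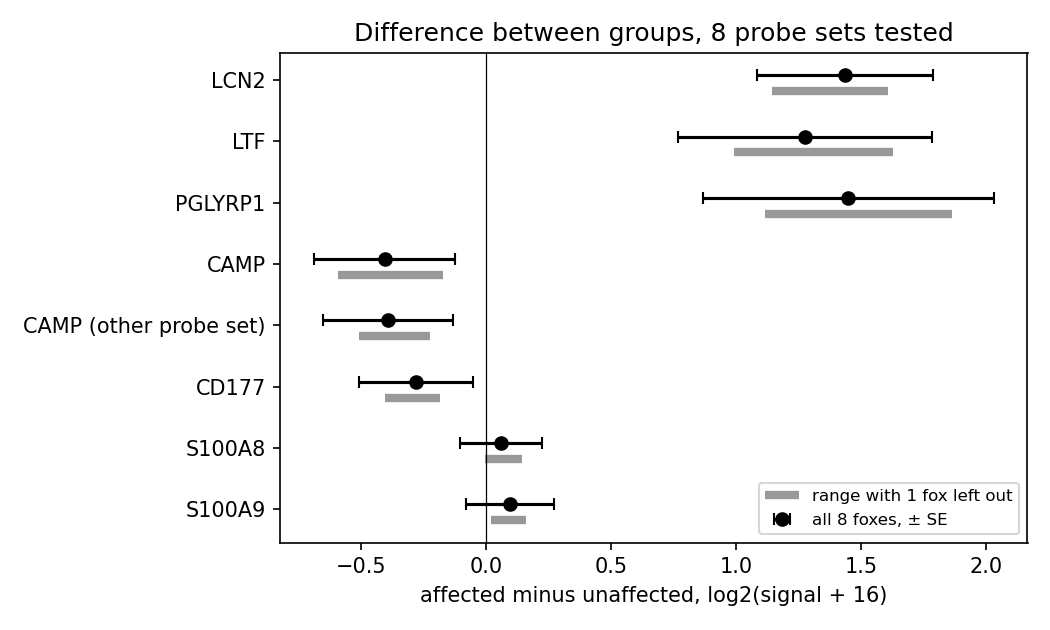
Difference between affected and unaffected foxes in log2(signal + 16) for the 8 probe sets that passed the filter. Black points are the values over 8 foxes with their SE and grey bars the range with any 1 fox left out; LCN2, LTF and PGLYRP1 lie at 1.28 to 1.45, CAMP and CD177 below 0, and S100A8 and S100A9 near 0.

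CAMP, the single cathelicidin of dogs, is cleaved to an antimicrobial peptide after release from specific granules. Its brighter probe set read 25.3, 59.3, 28.0, 18.2 and 22.9 in affected foxes 19, 55, 107, 381 and 757, against 66.1, 38.0 and 31.4 in unaffected foxes 86, 97 and 402. In this probe set 4 of the 5 affected foxes lay below all unaffected foxes, and fox 55 lay among them. The difference was -0.41 ± 0.28 (SE), and that of the other CAMP probe set -0.39 ± 0.26. In that other probe set only affected foxes 381 and 757, at 11.4 and 3.96, lay below all unaffected foxes, which read 19.9 to 29.7. Fox 757 was at background there. With any 1 fox left out the brighter probe set differed by -0.59 to -0.17, and among the 4 foxes whose 5' actin control was low (19, 55, 381 and 402) by 0.00058.

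CD177 is a surface protein that neutrophils also keep in specific granules. It read 24.1, 9.08, 12.1, 28.1 and 13.99 in affected foxes 19, 55, 107, 381 and 757, against 26.3, 28.4 and 17.4 in unaffected foxes 86, 97 and 402. The groups overlapped and 2 affected foxes were at background. The difference was -0.28 ± 0.23 (SE), but 0.12 within females and 0.086 among those 4 foxes.

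MPO makes hypochlorous acid and is the marker enzyme of azurophil granules. Its probe set read 1.35 to 3.04 in the 5 affected foxes, all at background. In unaffected foxes 86, 97 and 402 it read 1.98, 2.74 and 13.3, and only fox 402 was above background. No fold is given, because the probe set was not above background in any affected fox.

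S100A8 and S100A9 were read at the upper end of the arrays in every fox. S100A8 read 14568, 14527, 15616, 17745 and 13977 in affected foxes 19, 55, 107, 381 and 757, against 13338, 16440 and 14231 in unaffected foxes 86, 97 and 402. The groups overlapped and the difference was 0.060 ± 0.16 (SE); it was -0.0061 without fox 86 and -0.052 after quantile normalization. S100A9 read 10779, 15794, 13726, 12078 and 12172 in affected foxes 19, 55, 107, 381 and 757, against 12542, 12503 and 10940 in unaffected foxes 86, 97 and 402. Its difference was 0.096 ± 0.17 (SE), and -0.020 after quantile normalization. Over the 8 foxes the coefficient of variation was 9.65% for S100A8 and 12.8% for S100A9.

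The S100A8 signal came to 84.5% to 96.5% of the highest signal on the same array, and that of S100A9 to 62.8% to 95.6%. Saturation flags are not among the values used here, so how far the small spread reflects a ceiling of the measurement was not tested. In RefSeq's fox gene table (assembly VulVul3) S100A8 and S100A9 are neighbours with 1 protein-coding gene between them.

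Sex took no part in the choice of these genes and was tested with a term for the group (3 females, 5 males). Limma called 1 of 25754 probe sets at an adjusted p under 0.05 (0.00388%) and 0 of the 8 of these genes. LCN2 averaged 337 ± 228 in females (SD, n = 3) and 167 ± 74.2 in males (SD, n = 5), a log2 difference of 0.73 ± 0.28 (SE; limma adjusted p = 0.9999) that was 0.46 without fox 381. Both CAMP probe sets had lower means in females, by -0.50 ± 0.25 and -0.61 ± 0.19 (SE; limma adjusted p = 0.9999 for each), and by -0.26 and -0.24 with an offset of 64 in place of 16. The other 5 probe sets tested differed between the sexes by -0.15 to 0.14.

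Whether the genes vary together from fox to fox was examined over all 28 pairs of the 8 genes, with 1 probe set per gene. With each value centred on its group mean, which takes out the group difference that the genes were chosen by, 0 of the 28 pairs passed and 1 had an unadjusted p under 0.05. That pair was LTF and PGLYRP1, with a group-centred r of 0.93 (exact permutation within groups, p = 0.0069, adjusted p = 0.194). Over the 8 foxes uncentred, where the group difference adds to the correlation and the p is no independent evidence, the pair had a Pearson r of 0.96 (two-sided exact permutation p = 0.00067, Benjamini-Hochberg adjusted p = 0.0188) and a Spearman rho of 0.95 (exact permutation p = 0.00114, adjusted p = 0.032). Without foxes 55 and 402, the 2 farthest from the LTF median, r was 0.92 (exact permutation p = 0.022, 6 foxes). With any 1 fox left out the uncentred r stayed between 0.94 and 0.99, while the adjusted p was 0.0111 without fox 381 or 757 and 0.0722 to 0.1 without each of the other 6.

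**Figure D3:**
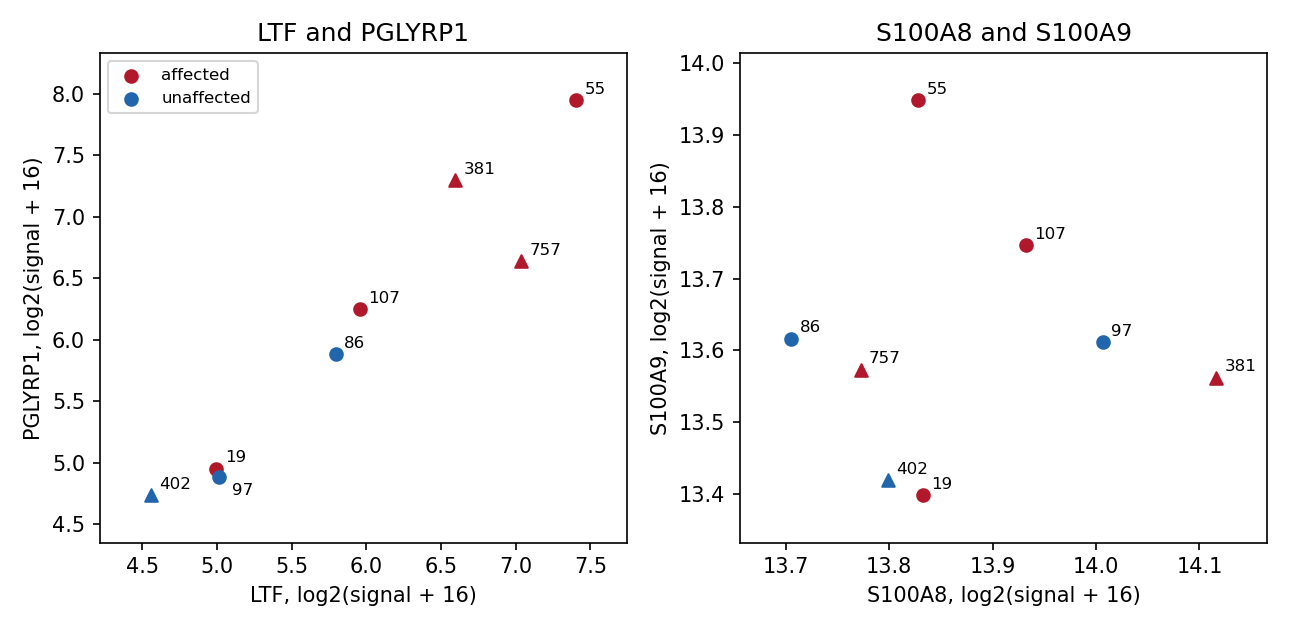
Left, PGLYRP1 against LTF, and right, S100A9 against S100A8, both in log2(signal + 16), with each point 1 fox labelled by its number (red affected, blue unaffected, circles males, triangles females). LTF and PGLYRP1 rise together in both groups (r = 0.96 over 8 foxes). S100A8 and S100A9, both near the upper end of the scale and of small spread, show r = 0.04.

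LCN2 followed LTF and PGLYRP1 less closely, with r of 0.59 and 0.63 (exact permutation, adjusted p = 0.507 for each), and group-centred r of 0.15 and 0.24 (exact permutation, adjusted p = 0.911 and 0.875). Fox 55, highest for LTF and PGLYRP1, had the lowest LCN2 signal of the affected foxes. S100A9 had an r of 0.70 with LTF and 0.73 with PGLYRP1 (exact permutation, adjusted p = 0.468 for each), which fell by leaving out fox 55 to 0.48 in both pairs. S100A8 and S100A9, whose proteins pair as calprotectin, had an r of 0.042 and a rho of -0.095 (exact permutation, adjusted p = 0.984 and 0.905). Both were read near the upper end of the scale with a small spread. How far that limits their r was not tested. CAMP and LCN2 had an r of -0.59 and a rho of -0.81 (exact permutation, adjusted p = 0.507 and 0.305). Both values are uncentred and contain the group difference. The group-centred r of this pair was -0.41 (exact permutation within groups, adjusted p = 0.714).

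**Figure D4:**
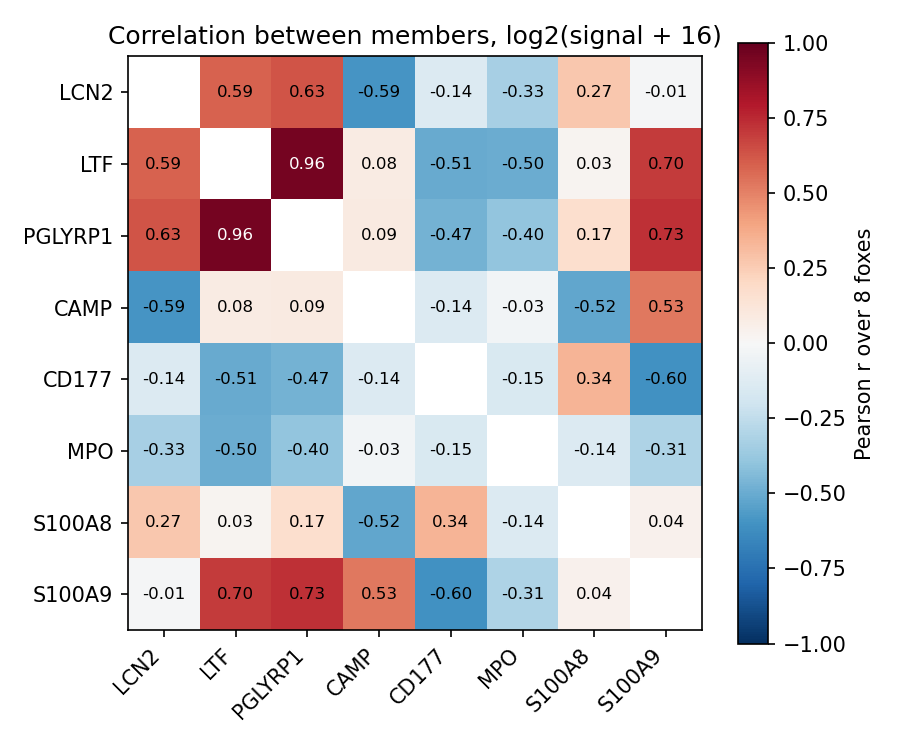
Pearson r over 8 foxes between the brightest probe sets of 8 genes, in log2(signal + 16), from blue (-1) to red (1). The LTF and PGLYRP1 cell, at 0.96, is the highest of 28 pairs; with values centred on group means, 0 of the 28 had an adjusted p under 0.05.

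The genes most like each member over the 8 foxes were sought by Pearson r among 10513 other named genes, as a description. These r are uncentred and so contain the group difference by which the members were chosen. LTF was most like ATP2B1, a calcium pump of the plasma membrane (r = 0.97), ANXA3, an annexin (0.96), and RALGAPA2, a subunit of a GTPase activator (0.96). PGLYRP1 was most like RALGAPA2 (0.98), the protease inhibitor CSTB (0.97) and BPIFA1 (0.97), a secreted protein of airway and mouth. LCN2 was most like VSNL1, a calcium sensor (0.94), KIFC3, a kinesin (0.93), and the folate enzyme MTHFD1 (0.93). An r of at least 0.9 was reached by 47 genes for LTF, 41 for PGLYRP1 and 4 for LCN2. With values centred on group means, r with LCN2 was 0.81 for VSNL1, 0.79 for KIFC3 and 0.91 for MTHFD1. Centred r of the genes named for LTF and PGLYRP1 ran from 0.94 to 0.97. The counts at 0.9 or above were not redone with centred values.

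S100A8 was most like CASP2, a caspase (r = 0.97), and the ribosomal proteins RPS26 (0.97) and RPS21 (0.96), with 20 genes at 0.9 or above. S100A9 was most like PDLIM1 (0.98), the fatty acid enzyme ACADVL (0.97) and LSM7 (0.96), with 36 such genes. RPS26 and RPS21, like S100A8, were read at the upper part of the scale in all foxes, at 11360 to 14748 and 8633 to 12315. CAMP was most like PIP5K1C (0.95), a lipid kinase, and CD177 most like XRCC1 (0.95), a DNA repair protein. Of the genes most like MPO, at background in 7 foxes, ST7L had the highest r (0.97).

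Other genes of neutrophils were read from lists by compartment, without the 9 genes themselves. No list gene passed the limma test, and the counts of higher means below stand beside the 43.5% of all probe sets tested that had one. The bases differ: the counts take the brightest probe set of each gene, the share takes every probe set tested. Among azurophil granule genes 5 of 5 tested had higher means in affected foxes (median difference 0.25), of which 2, LYZ at 0.037 ± 0.48 (SE) and CTSC at 0.12 ± 0.41, changed sign in some fits with a fox left out. They included BPI, which permeabilises gram-negative bacteria, with 202 ± 28.2 in affected foxes (SD, n = 5) against 145 ± 85.3 in unaffected ones (SD, n = 3), and CD63, a granule membrane protein, with 6125 ± 954 against 5076 ± 1354. Without fox 97 the difference of BPI was 0.23, against 0.56 over all foxes, and that of CD63 0.089, against 0.29. SERPINB1, the gene at the median, is an inhibitor of granule proteases, counted in this list though mainly cytosolic. The other probe set of SERPINB1 differed by -0.53, and that of LYZ by -0.14. Those of BPI differed by 0.28 to 0.54, and that of CD63 by 0.33. ELANE, neutrophil elastase, was at background in all 8 foxes, like MPO in 7, and CTSG in 6.

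Among the other specific granule genes 3 of 3 tested had higher means (median 0.37), among them TCN1, a cobalamin carrier, with 2178 ± 899.8 in affected foxes (SD, n = 5) against 1255 ± 667 in unaffected ones (SD, n = 3). TCN1 differed by 0.82, and by 0.32 without fox 97, and 1 of the 3 genes changed sign with a fox left out. MMP8 and OLFM4, which did not pass the filter, differed by -0.10 and -0.021. They were at background in 4 and 7 foxes, and each changed sign in some fits with a fox left out. Among gelatinase granule and secretory vesicle genes 6 of 6 had higher means (median 0.49). Of these 3 changed sign in some fits with a fox left out: ITGB2 (0.021 ± 0.44, SE), ARG1 (0.081 ± 0.21) and ALPL (0.54 ± 0.48). Their other probe sets differed by -0.051 to 0.0045 for ITGB2, by -0.25 to 0.29 for ARG1 and by 0.61 for ALPL. MMP9, a gelatinase, read 71.0, 182, 55.3, 60.2 and 78.4 in affected foxes 19, 55, 107, 381 and 757, against 30.7, 15.2 and 33.7 in unaffected foxes 86, 97 and 402. The groups did not overlap, as in 0.916% of all probe sets tested, the difference was 1.23 ± 0.33 (SE), and the 2 other MMP9 probe sets differed by 0.28 and 0.35. SLC11A1, a metal transporter of phagosomes, differed by 0.71 ± 0.24 (SE), and its 2 other probe sets by -0.046 and 0.61.

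Receptors and signalling genes of mature neutrophils had higher means in 5 of 7 (median 0.23). TREM1, an activating receptor, differed by 0.58 ± 0.31 (SE) and PADI4, which citrullinates histones, by 0.50 ± 0.31, while LTB4R and SELPLG differed by -0.054 and -0.15. TREM1 was at background in 1 affected and 1 unaffected fox, and LTB4R in 1 unaffected fox. LTB4R was positive in 3 of the 8 fits with a fox left out, and SELPLG in 1; the other SELPLG probe sets differed by -0.23 to 0.32. Of the 7 genes 3 changed sign in such fits. The annotation named no probe set for CXCR1, CXCR2, FCGR3A or FPR1. The phagocyte oxidase had higher means in 4 of 5 genes (median 0.23), with NCF1 at 0.41 ± 0.30, RAC2 at 0.27 ± 0.70 and NCF4 at -0.029 ± 0.47 (SE). NCF1 did not exceed background in 2 of the 3 unaffected foxes. RAC2 was negative in 2 of the 8 fits with a fox left out, and NCF4 positive in 3, and the other NCF4 probe set differed by 0.091. Of the 5 genes 3 changed sign in such fits.

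Genes of granulocyte development were split, with 3 of 6 higher in affected foxes (median -0.067) and 4 changing sign with a fox left out. CEBPE, the factor that drives specific granule genes, differed by 0.30 ± 0.22 (SE), and CSF3, the growth factor of neutrophils, by -0.55 ± 0.36. CSF3 did not exceed background in affected foxes 55 and 107. Chemoattractants and epithelial inducers had 8 of 13 higher (median 0.17) and 4 changing sign with a fox left out. Among the higher were CXCL8, the main attractant of neutrophils, by 0.86 ± 0.38, and ICAM1, their endothelial ligand, by 0.82 ± 0.54. Without fox 97 CXCL8 differed by 0.45, and without fox 55 ICAM1 by 0.45. CCL20 differed by -0.58 ± 0.49 (SE), and by -0.053 without fox 86. TNF differed by -0.46 ± 0.23 (SE), whereas its 2 other probe sets differed by 0.085 and 0.11. The brightest TNF probe set was at background in 1 affected fox.

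In receptors for calgranulins and lipocalin 6 of 7 had higher means (median 0.20), and 3 of the 7 changed sign with a fox left out. The largest difference there was that of CD36, a scavenger receptor, at 0.67 ± 0.48 (SE), and the 1 lower gene was BSG at -0.11 ± 0.28, which was positive in 1 of the 8 fits with a fox left out.

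Of the S100 family besides S100A8 and S100A9, 10 of 11 genes tested had higher means in affected foxes (median 0.27), and 3 of the 11 changed sign with a fox left out. S100P averaged 7068 ± 2661 in affected foxes (SD, n = 5) against 4168 ± 808 in unaffected ones (SD, n = 3), a difference of 0.70 ± 0.31 (SE). S100A4 read 4332 ± 1268 against 2784 ± 917, a difference of 0.62 ± 0.32. S100A13 was the 1 lower gene, at -0.31 ± 0.26. S100A14, an epithelial member singled out after its values were seen, was the only one of the 11 whose groups did not overlap, as in 0.916% of all probe sets tested, with 8670 to 11240 in affected foxes against 5289 to 7477 in unaffected ones, a difference of 0.60 ± 0.18 (SE); its other probe set differed by 0.16.

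**Figure D5:**
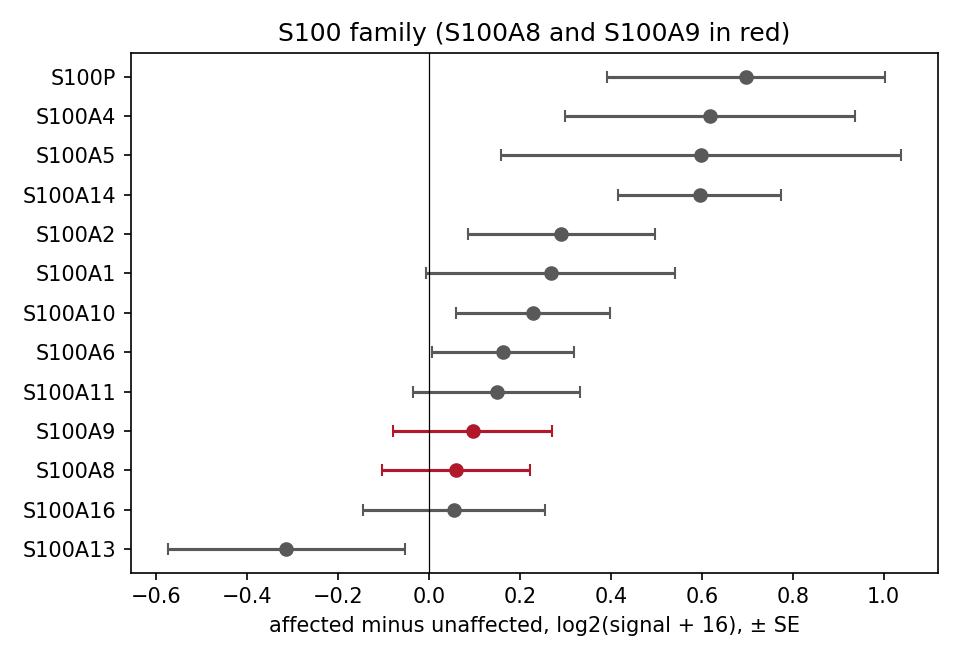
Difference between affected and unaffected foxes in log2(signal + 16), with its SE, for the 13 genes of the S100 family that passed the filter. S100A8 and S100A9, in red, lie at 0.06 and 0.10, and the other 11 run from -0.31 (S100A13) to 0.70 (S100P).

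Markers of other cell types were summed per fox. Basal and activated keratinocyte markers had higher means in affected foxes in 5 of 8 genes tested, and 6 of the 8 changed sign with a fox left out. Their summed signal was 9500 to 25980 in affected foxes against 6504 to 23402 in unaffected ones. Cornified layer markers had higher means in affected foxes in 13 of 16 genes tested, and 11 of the 16 changed sign with a fox left out, with a summed signal of 18137 to 53494 in affected foxes against 4189 to 43353 in unaffected ones, lowest in fox 86. With their mean as a covariate the difference was 1.47 for LCN2, 1.64 for LTF, 1.79 for PGLYRP1 and 0.021 for S100A8. Salivary gland markers were higher in 7 of 10, with sums of 939 to 1827, highest in fox 55, against 964 to 1163. BPIFA1 among them differed by 0.45 ± 0.26 (SE) and its other probe sets by -0.075 to 0.36. LPO, a peroxidase of saliva, differed by -0.53 ± 0.28 and its other probe set by 0.075. The brighter LPO probe set was at background in 2 affected foxes.

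Macrophage markers were higher in 9 of 10, with sums of 1464 to 4781 against 1614 to 5303, and lowest in fox 19. Blood and erythroid markers were higher in 3 of 5, with sums of 228 to 390 against 234 to 270. T cell markers were higher in 2 of 7, with sums of 176 to 982 against 328 to 1647. Sums of all these lists overlapped between the groups. With a fox left out, 5 of the 10 macrophage genes, 3 of the 5 blood genes, 7 of the 7 T cell genes and 2 of the 10 salivary genes changed sign. The part of basal keratinocytes and of salivary, macrophage, blood and T cells in the differences of LCN2, LTF and PGLYRP1 was not tested.

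RNA integrity, as the 5' actin control shows it, split the foxes into 86, 97, 107 and 757, at 7831 to 8868, and 19, 55, 381 and 402, at 1354 to 2336. Computed inside the high set and then inside the low set, LCN2 differed between the groups by 1.46 and 1.26, LTF by 1.09 and 1.78, and PGLYRP1 by 1.06 and 2.00. For CAMP it was -0.69 and 0.00058, and for S100A9 0.046 and 0.22. The low set held 1 unaffected fox.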

How the data were processed

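Gingival RNA of 8 foxes was read on 1 array each. The authors deposited linear intensity values, the MAS5 signal per the submitters' processing notes, with neither version nor scaling target named there. After 2% was trimmed from both ends, each array averaged 150.0. Of 43035 probe sets 111 were controls, and of the rest 29254 had 1 symbol in the platform annotation, 439 several and 13231 none used here. Values entered the tests as log2(signal + 16), not normalized again. Leaving out the dimmest 40% by mean signal kept 25754 probe sets. Groups were compared with limma 3.58.1 in R 4.3.3 (lmFit, eBayes, Benjamini-Hochberg over all probe sets tested, threshold 0.05), and sexes likewise with a term for the group. The brightest probe set stood for a gene. Correlations used exact permutation over foxes (scipy 1.17.1 and numpy 2.4.6 in Python 3.11.15).

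The members and lists were chosen with earlier results of these data known. From each list the 2 tested genes with the largest difference in each direction could be named, besides markers of cell types, and for each member the 3 genes with the highest r over 8 foxes (unnamed loci passed over). SERPINB1, LYZ, CTSC, ITGB2, ARG1, ALPL, ELANE, CTSG, MMP8 and OLFM4 fall outside that rule and were named after their values were seen. Separate foxes are the replicates. Precision is limited by the 8 arrays, with a median SE of 0.23 for a group difference. Simulated arrays held 25754 probe sets, 200 of them changed, with independent normal noise of a single SD per probe set for both groups. Limma recovered 30.1% of changes of 1 on the log2 scale, 80.9% of 2 and 94.5% of 3. Variation that probe sets share within an array was not simulated, so these shares may not hold for the real arrays. Alternatives covered the offset, quantile normalization, the filter, covariates, each sex, array weights and each fox left out. Sequences of these genes were not used here.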

Additional observations from a re-analysis of the deposited data

Results flagged for a closer look

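None of the 10 probe sets of the granule and calgranulin genes met a criterion for a closer look. Of 56 other named genes, list sums and these probe sets checked in the affected group, 4 had 1 fox far from the rest, where chance gives about 1 in 20. MMP9 was high in fox 55, at 182 against 55.3 to 78.4 in the other affected foxes, a gap of 0.72 of the range. Fox 19 was low for S100A4, at 2181 against 4410 to 5367 (0.78 of the range), for RAC2, at 221 against 1084 to 1672 (0.78), and for the summed phagocyte oxidase genes, which hold RAC2, at 5210 against 9511 to 11118 (0.79). CSF3 differed by -1.20 within males, where every affected fox lay below both unaffected foxes. Within females it differed by 0.53, where both affected foxes lay above the 1 unaffected fox. The gap between the sexes, -1.73, was not tested. Affected males 55 and 107 were at background for CSF3, at 14.2 and 6.08, so the male difference and the gap rest in part on background reads.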

How the results depend on the processing

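The count of probe sets called between affected and unaffected foxes stayed at 0 in both directions under the other offsets, quantile normalization, other filters, covariates, males alone, array weights, 1 probe set per gene and each fox left out. It was 298 higher and 395 lower at an unadjusted p under 0.05, and 16 higher and 10 lower where the unadjusted p was under 0.01 and the change at least 2-fold. Between females and males 1 probe set was called lower and 0 higher (0 to 1 higher with a fox left out, 1 without fox 55). At an unadjusted p under 0.05, a setting added after seeing the data, 184 were higher and 407 lower. For group and sex alike, the higher and lower counts at that setting together made less than 0.05 of all probe sets tested. Chance alone would give about that share. The count of correlated pairs was 1, and 0 with values centred on group means; it ran from 0 to 1 with a fox left out. LCN2, LTF and PGLYRP1 stayed higher in affected foxes under every alternative run, at 1.13 to 1.76, 0.71 to 2.26 and 0.86 to 2.23. Of 218 recomputed differences between the groups 8 changed sign, in CAMP, CD177, MPO, S100A8 and S100A9. No paired analysis was possible because the groups share no replicate numbers. Dim signals limit MPO, CD177, the other LTF and CAMP probe sets and the lowest reads of LTF and PGLYRP1. The upper end of the scale limits S100A8 and S100A9.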
